A study of Homo sapiens with 12 samples.

Results

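The genes described here are 44 that drive or mark cell division: the machinery that licenses and copies DNA, the cyclins and kinases of G1, S phase and mitosis, and the proteins that assemble the spindle and separate the chromosomes. They were chosen by name, and each was read from the probe set of highest mean level among those to which the platform annotation gives that gene as the only symbol. Of the 44 named genes, 42 had such a probe set, among 18404 genes tested on the arrays. CENPA and CDKN2C had none and are not analysed here. The question was whether Ero1α, or the cell line that carries it, went with a difference in proliferation RNAs.

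RNA came from HEK 293 Flp-In T-REx cells, a human embryonic kidney line with one genomic landing site for a transgene and a promoter that doxycycline switches on. A WT line carried Ero1α-WT, the oxidase of the endoplasmic reticulum that passes disulfide bonds to protein disulfide isomerase. The other line, called mutant below, expressed Ero1α-C104A/C131A. Its alanines take the place of a pair of regulatory cysteines, a change known to leave the oxidase more active. Each line was sampled uninduced and after 24 h of doxycycline, with 3 biological replicates in each of the 4 groups (12 arrays in all). All groups share the parental cells, the stable transgene and selection with hygromycin B and blasticidin. Each construct is represented by a single stable line, so construct and line cannot be told apart. Doxycycline-treated cells without a transgene were not analysed here.

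A dividing cell moves from G1 into S phase when cyclin D with CDK4 or CDK6 phosphorylates the retinoblastoma protein and frees the E2F activators, which switch on cyclin E and the replication genes. MCM helicases loaded by CDC6 and CDT1 then open the origins, and cyclin A with CDK2 carries the cell through S phase. A later wave of genes, cyclin B with CDK1, the CDC25 phosphatases that activate it, PLK1 and the Aurora kinases, drives mitosis. HEK 293 cells carry adenoviral E1A, which binds the retinoblastoma protein and so acts on the first of these steps.

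All values are log2 RMA levels, where 1 unit is a 2-fold difference, and they are compared only within a gene. Every one of the 42 members had a mean level above log2 6.393, the middle of the arrays' medians over all probe sets. That value is called the median level below, and it takes in probe sets without a gene symbol. Of the 18404 genes, 11153 lay above it. The lowest member was E2F2 with 7.36 and the highest MCM7 with 11.6. Transgene induction showed in the ERO1A probe set, which was 4.37-fold higher on induction in the WT line and 5.38-fold higher in the mutant line. The difference of these responses did not pass (adjusted p = 0.982, limma). Uninduced, ERO1A in the mutant line was 0.740-fold that of the WT line (adjusted p = 0.000454), and induced it was 0.912-fold (adjusted p = 0.178). Of the 6 HEK 293 markers, KRT8, KRT18, VIM and CDH2 read log2 9.86 or more in every array. PAX2 stayed near the median level (6.39 to 6.62) and NEFM below it (5.01 to 5.47). Averaged over induction states, 4 of these 6 were higher in the mutant line, VIM by 1.52-fold, KRT8 by 1.30-fold, KRT18 by 1.14-fold and CDH2 by 1.14-fold (limma), and PAX2 and NEFM did not pass. The 4 leukocyte markers averaged 5.25 to 5.48 over the WT arrays and 5.52 to 5.69 over the mutant arrays. The corresponding ranges for the 5 fibroblast markers were 5.10 to 5.34 and 5.44 to 5.60. In the leukocyte list CD68 was higher in the mutant line (1.74-fold) and the other 3 did not pass. In the fibroblast list LUM was higher (2.93-fold) and COL3A1 lower (0.876-fold, adjusted p = 0.024, limma), while COL1A1 (1.03), COL1A2 (1.00) and DCN (1.02) did not pass. PTPRC (3.02 to 3.50) and DCN (3.31 to 3.64) were far below the median level in every array. CD68 (7.76 to 8.76) and COL1A1 (7.16 to 7.37) were above it in every array. The other leukocyte and fibroblast markers were below it. No marker passed the test on induction, and the part of these marker differences in the results between the lines was not tested.

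Switching on Ero1α for 24 h moved no member past the threshold. In the WT line 0 of 42 members passed, beside 0.114% of all genes, by limma's moderated test with Benjamini-Hochberg adjustment over 18404 genes. In the mutant line 0 of 42 passed, beside 0.326% of all genes, and in the average over both lines 0 of 42 passed, beside 0.473%. Fold changes of the members ran from 0.918 (CDC25C) to 1.09 (CDC6) in the WT line and from 0.883 (E2F2) to 1.18 (CDC6) in the mutant line. The 95% intervals of all 42 lay between 0.839-fold and 1.18-fold in the WT line, and between 0.811-fold and 1.28-fold in the mutant line. Changes within these bounds cannot be judged absent from 3 arrays a group. At an unadjusted p under 0.05 there was 1 member in the WT line, beside 4.46% of all genes. The mutant line had 4 such members (CDC6, E2F2, MCM5 and BIRC5), beside 5.88%, and the average had 3 (CDC6, MCM5 and TYMS), beside 5.52%. The median member difference was -0.03 in the WT line, where the median of all genes was 0.00, and -0.04 in the mutant line, where that of all genes was -0.01.

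CDC6, the ATPase that loads the MCM helicase onto origins, had the largest positive change in both lines and is singled out here after its values were seen. In the WT line its level was 10.10, 10.07 and 10.12 in the uninduced cultures (replicates A, B and C) and 10.24, 10.23 and 10.22 in the induced ones. The mutant cultures read 10.19, 10.05 and 10.16 uninduced and 10.36, 10.42 and 10.34 induced. In each line all 3 induced cultures lay above all 3 uninduced cultures. The share of all genes with such a separation was not counted. The ratio was 1.09 (95% interval 1.01 to 1.18, adjusted p = 0.996, limma) in the WT line and 1.18 (1.09 to 1.28, adjusted p = 0.115) in the mutant line. Averaged over the lines it was 1.14 (1.08 to 1.20, adjusted p = 0.0552), just short of the threshold. With genes of low level left out, the adjusted p of the average was 0.0122 and that of the mutant line 0.0290. Over all alternatives the adjusted p of the average ran from 0.00143 to 0.417.

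The promoter of CDC6 is shown because CDC6 came nearest to the threshold on induction. It spans 280 bases, from 250 before the annotated start to 30 after it, at chr17:40287629-40287908 on the + strand (RefSeq, GRCh38.p14). Capitals mark matches to the E2F letters and to CCAAT, written on either strand, so that ATTGG is a CCAAT box read from the other strand.
CDC6: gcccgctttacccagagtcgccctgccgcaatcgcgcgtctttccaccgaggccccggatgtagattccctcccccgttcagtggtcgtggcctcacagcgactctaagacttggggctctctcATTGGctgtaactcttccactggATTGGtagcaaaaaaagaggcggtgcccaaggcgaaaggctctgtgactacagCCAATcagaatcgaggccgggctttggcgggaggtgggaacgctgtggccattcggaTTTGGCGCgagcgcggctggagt
The E2F match TTTGGCGC lies at positions 8 to 15, counted from 1 at the start, and the CCAAT matches begin at -126, -103 and -50. A match describes the letters only and says nothing of whether a factor binds.

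Other genes of origin licensing and DNA synthesis gave smaller values on induction. MCM7, a subunit of the replicative helicase, was at 11.66, 11.66 and 11.69 in the uninduced WT cultures and 11.66, 11.62 and 11.67 in the induced ones, against 11.60, 11.57 and 11.59 and 11.51, 11.62 and 11.51 in the mutant line. These groups overlapped within each line. MCM5, a further helicase subunit, had a ratio of 0.887 (0.811 to 0.969, adjusted p = 0.665, limma) in the mutant line. TYMS, which makes thymidylate for DNA synthesis, was at 10.96, 10.93 and 10.91 uninduced and 10.81, 10.83 and 10.93 induced in the WT line. Mutant cultures read 10.88, 10.87 and 10.88 and 10.79, 10.83 and 10.77, and the ratio averaged over the lines was 0.949 (0.901 to 1.00, adjusted p = 0.902). BIRC5, the survivin subunit of the chromosomal passenger complex, had a ratio of 0.902 in the mutant line (0.824 to 0.986, adjusted p = 0.795).

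The responses of the lines to induction were also set against each other. Of the 42 members, 0 passed the test of the difference of responses, beside 0% of all genes, and 1 did so at an unadjusted p under 0.05, beside 4.21%. That member was E2F2, an E2F activator of S-phase genes. In the WT line E2F2 was at 6.96, 6.90 and 6.98 uninduced and 7.07, 6.99 and 7.07 induced. Mutant cultures had levels of 7.78, 7.83 and 7.81 uninduced and 7.62, 7.65 and 7.61 induced. All WT induced cultures lay above the uninduced ones and all mutant induced cultures lay below theirs. How many of all genes show this pattern was not counted. The log2 difference of the responses was -0.28 (SE 0.07, unadjusted p = 0.00172, adjusted p = 0.921, limma). Over all 42 members, the ratio of the mutant to the WT response ran from 0.826 (E2F2) to 1.08 (CDC6), with intervals between 0.745-fold and 1.22-fold.

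The lines themselves differed in many members, whether induced or not. Averaged over induction states, 12 of 42 members were higher in the mutant line (28.6%, beside 15.3% of all genes) and 8 were lower (19.0%, beside 16.7%), while 22 did not pass. The members were all above the median level, where more genes pass. Among the 11153 genes above it, fitted alone, 24.2% were higher and 26.6% lower, with 14 and 11 members among them. Counts by role given below are of few genes each and are read against these shares, with no difference tested. The median member difference, -0.02, was that of all genes. In the uninduced cultures 10 members were higher, beside 10.8% of all genes, and 3 lower, beside 10.5%. In the induced cultures 10 were higher, beside 10.8%, and 4 lower, beside 10.9%. The induced arrays are other arrays of the same lines, and the fit estimates a common spread from all groups. The calls in the uninduced and induced states are thus not independent. Passing in both states were 10 members, of 13 uninduced and 14 induced, with 8 higher (E2F2, CDK6, CCND1, CCND2, CCNB1, CDC25B, CDC25C and AURKB) and 2 lower (PLK1 and CCNE1). How many of all genes pass in both states was not counted, so this count is not read as a trait of the members. The induced call of CCNE1 was lost without WT induced replicate B (adjusted p = 0.0592, limma). Whole cultures were measured, so fewer cells in a cycle phase and less RNA per cell cannot be told apart. RMA makes the arrays' distributions alike, so a shift of most genes would not show.

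**Figure D1:**
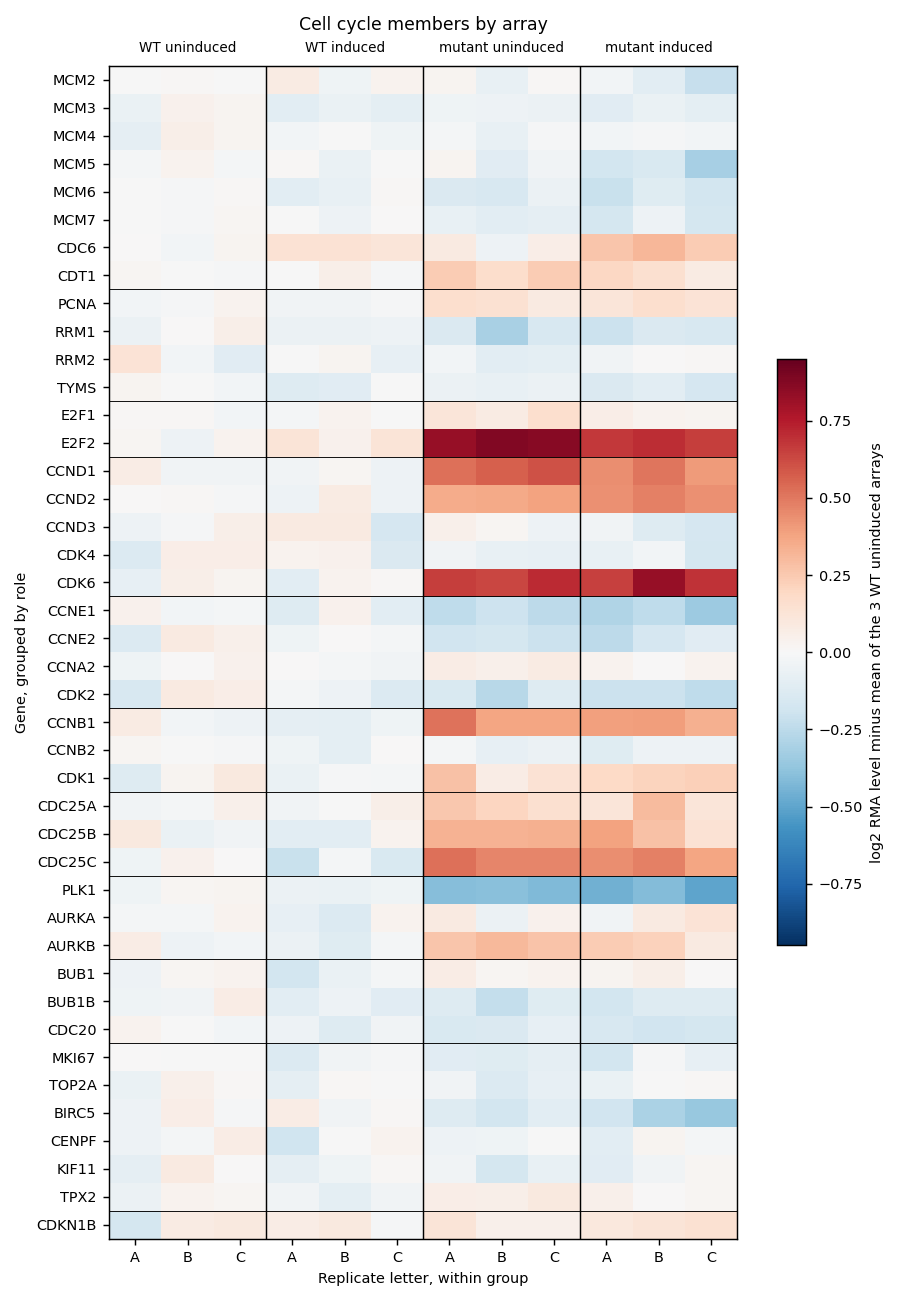
Log2 level of each member (rows, grouped by role) in each of the 12 arrays (columns), as the difference from the mean of the 3 uninduced WT arrays; the colour bar gives the log2 scale. The 6 mutant arrays stand apart from the 6 WT arrays in rows such as E2F2, CDK6, CCND1 and PLK1, while uninduced and induced columns of a line look alike.

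The G1 regulators gave the largest differences. E2F2, whose level in every array is given above, was 1.81-fold higher in the mutant line uninduced (95% interval 1.69 to 1.95, adjusted p = 3.89e-07, limma) and 1.50-fold higher induced (1.39 to 1.61, adjusted p = 6.56e-06). No mutant array overlapped a WT array. E2F1, a close relative in function, was at 8.93, 8.93 and 8.89 in the uninduced and 8.90, 8.95 and 8.92 in the induced WT cultures. For mutant cultures E2F1 was at 9.04, 9.00 and 9.07 uninduced and 8.98, 8.95 and 8.94 induced, a ratio of 1.05 averaged over states (adjusted p = 0.0916).

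CDK6, a kinase partner of the D cyclins, was at 8.45, 8.59 and 8.56 in the uninduced and 8.44, 8.56 and 8.54 in the induced WT cultures. The mutant line had 9.19, 9.17 and 9.24 uninduced and 9.19, 9.36 and 9.22 induced, above every WT array. The averaged ratio was 1.63 (1.52 to 1.74, adjusted p = 2.83e-07, limma). CDK4, the other kinase partner, was at 11.46, 11.65 and 11.65 and 11.62, 11.63 and 11.46 in the WT line, uninduced and induced. The mutant line had 11.55, 11.52 and 11.51 and 11.52, 11.56 and 11.42, within the WT range or close to it, with a ratio of 0.956 (0.886 to 1.03). CCND1, cyclin D1, was at 8.70, 8.59 and 8.59 in the uninduced and 8.60, 8.64 and 8.58 in the induced WT cultures, and at 9.15, 9.20 and 9.23 and 9.07, 9.14 and 9.03 in the mutant line. Here too no mutant array overlapped a WT array, and the ratio was 1.43 (1.35 to 1.52, adjusted p = 7.53e-07). CCND2, cyclin D2, was 1.33-fold higher (1.26 to 1.40), while CCND3, cyclin D3, had a ratio of 0.965 (0.895 to 1.04, not past the threshold). Of the 5 genes of cyclin D and its kinases, 3 were higher (beside 15.3% of all genes), 0 lower (beside 16.7%) and 2 did not pass. CDKN1B, the CDK inhibitor p27, had a ratio of 1.05 (0.975 to 1.13). Its arrays read 8.81, 9.05 and 9.08 and 9.05, 9.07 and 8.97 in the WT line, uninduced and induced, and 9.11, 9.03 and 9.03 and 9.08, 9.10 and 9.12 in the mutant line.

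The promoter of E2F2 is shown because E2F2 differed most between the lines. It lies at chr1:23531204-23531483 on the - strand (RefSeq, GRCh38.p14, 280 bases printed 5′ to 3′), and capitals mark the E2F match TTTGGCGC at -42 to -35.
E2F2: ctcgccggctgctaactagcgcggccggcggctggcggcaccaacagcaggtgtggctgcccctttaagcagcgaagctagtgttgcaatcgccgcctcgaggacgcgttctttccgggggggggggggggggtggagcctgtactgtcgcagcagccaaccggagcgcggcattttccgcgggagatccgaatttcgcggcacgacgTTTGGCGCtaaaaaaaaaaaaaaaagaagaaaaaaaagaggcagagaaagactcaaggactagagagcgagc
No CCAAT letters stand in this window. RefSeq entries for CCND1 and CCND2 were not among the promoters used here, and CDK6 had an entry without a match to the E2F, CHR or CCAAT letters.

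Cyclin E and its kinase went the other way. CCNE1, cyclin E1, was at 9.28, 9.21 and 9.22 in the uninduced and 9.11, 9.27 and 9.13 in the induced WT cultures. It was at 8.99, 9.04 and 8.98 and 8.95, 8.99 and 8.89 in the mutant line, below every WT array. The ratio was 0.854 (0.804 to 0.907, adjusted p = 0.000821, limma). CCNE2, cyclin E2, was at 8.79, 9.00 and 8.96 and 8.88, 8.92 and 8.90 in the WT line, uninduced and induced, and at 8.73, 8.75 and 8.72 and 8.67, 8.76 and 8.81 in the mutant line. Its ratio was 0.891 (0.833 to 0.953, adjusted p = 0.0119), and its ranges overlapped. CDK2, their kinase, had a ratio of 0.893 (0.829 to 0.962, adjusted p = 0.0236), a call lost with any of 5 single arrays left out (adjusted p from 0.0525 to 0.0631). CCNA2, cyclin A2, was at 10.49, 10.53 and 10.57 and 10.53, 10.51 and 10.50 in the WT line and at 10.60, 10.58 and 10.61 and 10.56, 10.53 and 10.56 in the mutant line, with a ratio of 1.04 (0.989 to 1.09) that did not pass. Thus 3 of the 4 genes of this role were lower (beside 16.7% of all genes) and 0 higher (beside 15.3%).

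Licensing and synthesis genes gave ratios closer to 1. Of the 8 licensing genes, CDT1, which loads the MCM helicase together with CDC6, was higher (1.13-fold, 1.07 to 1.19, adjusted p = 0.00254, limma). MCM6, a helicase subunit, was lower at 0.924-fold (0.875 to 0.977, adjusted p = 0.0314). The MCM6 call did not hold with arrays centred on their medians (adjusted p = 0.112) or with any of 8 single arrays left out (adjusted p from 0.0529 to 0.0746). The other 6 did not pass. Among these, MCM7 had a ratio of 0.935 (adjusted p = 0.051), MCM5 0.923 (0.0533), MCM2 0.949, MCM3 0.982, MCM4 0.989 and CDC6 1.06. Of the 4 synthesis genes, PCNA, the sliding clamp, was 1.11-fold higher (1.05 to 1.16). RRM1, the large subunit of ribonucleotide reductase, was 0.897-fold lower (0.844 to 0.954). RRM2, its small subunit, had a ratio of 0.979 and TYMS one of 0.961, neither past the threshold.

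All 3 CDC25 phosphatases, which remove the inhibitory phosphates of CDKs, were higher in the mutant line, beside 15.3% of all genes. Of these, CDC25C lies on chromosome 5, where 60.0% of all genes were higher. CDC25C was at 7.73, 7.81 and 7.77 in the uninduced and 7.56, 7.75 and 7.63 in the induced WT cultures. In the mutant line it was at 8.30, 8.23 and 8.23 and 8.21, 8.25 and 8.14, above every WT array, a ratio of 1.43 (1.35 to 1.53, adjusted p = 1.76e-06, limma). CDC25B was 1.26-fold higher (1.16 to 1.35). CDC25A was at 9.09, 9.11 and 9.17 and 9.09, 9.12 and 9.18 in the WT line and at 9.38, 9.33 and 9.28 and 9.24, 9.42 and 9.24 in the mutant line, 1.14-fold higher (1.07 to 1.22).

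Of the mitotic cyclins and CDK1, the mutant line was higher in 2 of 3, beside 15.3% of all genes. CCNB1, cyclin B1, was at 9.52, 9.41 and 9.39 in the uninduced and 9.35, 9.35 and 9.40 in the induced WT cultures. It was at 9.95, 9.82 and 9.82 and 9.83, 9.84 and 9.78 in the mutant line, 1.35-fold higher (1.27 to 1.44, adjusted p = 4.67e-06, limma) with no overlap. CDK1, the kinase of mitotic entry, was 1.15-fold higher (1.07 to 1.23). CCNB2, cyclin B2, was at 10.17, 10.15 and 10.15 and 10.12, 10.06 and 10.16 in the WT line and at 10.14, 10.08 and 10.11 and 10.04, 10.11 and 10.11 in the mutant line, overlapping throughout. Its ratio was 0.975 (0.926 to 1.03). The cyclin B genes thus parted, with intervals that do not meet. CCNB1 lies on chromosome 5 and CCNB2 on chromosome 15.

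Of the mitotic kinases, PLK1, the Polo-like kinase of mitotic entry and spindle assembly, had the lowest ratio of mutant to WT level among the members. It was at 11.77, 11.83 and 11.84 in the uninduced and 11.76, 11.75 and 11.78 in the induced WT cultures, and at 11.41, 11.42 and 11.40 and 11.36, 11.40 and 11.31 in the mutant line. No array overlapped, and the ratio was 0.755 (0.719 to 0.794, adjusted p = 1.84e-06, limma). AURKB, the kinase of the chromosomal passenger complex, was 1.20-fold higher (1.13 to 1.28), and AURKA, the spindle pole kinase, had a ratio of 1.05 (0.983 to 1.12, not past the threshold). BIRC5, a partner of AURKB in that complex, was at 9.16, 9.28 and 9.20 and 9.29, 9.18 and 9.23 in the WT line, uninduced and induced. In the mutant line it was at 9.09, 9.04 and 9.12 and 9.03, 8.91 and 8.86, 0.862-fold lower (0.809 to 0.919, adjusted p = 0.00185), with every mutant array below every WT array.

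The promoters of CCNB1, CCNB2 and PLK1 are shown together because these mitotic genes belong to one transcriptional wave and yet were higher, not past the threshold and lower in the mutant line. Each is 280 bases, 5′ to 3′, from RefSeq (GRCh38.p14). CCNB1 lies at chr5:69166900-69167179, CCNB2 at chr15:59104896-59105175 and PLK1 at chr16:23678639-23678918, all on the + strand. Capitals mark CCAAT on either strand and the letters TTTGAA, one form of the cell cycle homology region (CHR) of G2/M genes.
CCNB1: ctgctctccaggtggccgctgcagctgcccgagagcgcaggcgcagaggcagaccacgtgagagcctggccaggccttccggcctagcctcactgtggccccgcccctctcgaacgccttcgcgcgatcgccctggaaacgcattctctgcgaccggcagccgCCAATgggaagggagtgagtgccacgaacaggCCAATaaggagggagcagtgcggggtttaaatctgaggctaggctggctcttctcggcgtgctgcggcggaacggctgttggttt
CCNB2: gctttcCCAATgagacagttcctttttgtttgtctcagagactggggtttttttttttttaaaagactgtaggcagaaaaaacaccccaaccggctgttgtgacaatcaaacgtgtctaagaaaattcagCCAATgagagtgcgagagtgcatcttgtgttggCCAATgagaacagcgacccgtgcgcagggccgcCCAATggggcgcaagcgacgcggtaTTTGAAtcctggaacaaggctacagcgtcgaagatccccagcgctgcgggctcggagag
PLK1: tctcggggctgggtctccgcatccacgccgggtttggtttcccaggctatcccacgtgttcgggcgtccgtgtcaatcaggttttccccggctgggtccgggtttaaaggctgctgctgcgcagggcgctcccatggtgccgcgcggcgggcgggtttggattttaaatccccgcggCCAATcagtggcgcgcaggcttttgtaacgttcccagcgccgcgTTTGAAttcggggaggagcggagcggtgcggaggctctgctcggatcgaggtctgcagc
CCNB2 and PLK1 both hold TTTGAA at -29 to -24 downstream of a CCAAT box, and they differed in their values between the lines. CCNB1 has CCAAT letters from -87 and from -55 and no match to TTTGAA or TTCGAA, the CHR letters searched. Other forms of the CHR were not searched, so CCNB1 cannot be said to lack one.

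Genes of the spindle checkpoint and of chromosome structure, which mark mitotic cells, were lower in 1 of 3 and 1 of 6, and higher in none (limma). Of all genes, 16.7% were lower and 15.3% higher. At an unadjusted p under 0.05, TPX2 alone had a higher value. CDC20, the activator of the anaphase-promoting complex, was at 11.40, 11.37 and 11.34 and 11.32, 11.25 and 11.34 in the WT line, uninduced and induced, and at 11.22, 11.23 and 11.29 and 11.22, 11.19 and 11.20 in the mutant line. It was 0.927-fold lower (0.881 to 0.975, adjusted p = 0.0255, limma), a call lost with arrays centred on their medians (adjusted p = 0.0794) and with any of 5 single arrays left out (0.0515 to 0.0619). BUB1, a checkpoint kinase, had a ratio of 1.05, and BUB1B, its partner BubR1, one of 0.930 (adjusted p = 0.0528). TOP2A, the topoisomerase that untangles sister chromatids, was at 10.97, 11.08 and 11.04 and 10.94, 11.04 and 11.03 in the WT line and at 10.99, 10.90 and 10.95 and 10.96, 11.02 and 11.04 in the mutant line. Its ratio was 0.975 (0.921 to 1.03). MKI67, which encodes the proliferation marker Ki-67, had a ratio of 0.955 (0.901 to 1.01), CENPF 0.997, the spindle motor KIF11 0.968 and the spindle assembly factor TPX2 1.05. None of the 5 passed, and BIRC5 was the 1 of 6 genes of this role that did.

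Other cell cycle genes were read from 10 lists, of which 184 of 189 genes were measured. None of the 184 passed on induction in the WT line, the mutant line, the average or the difference of responses (limma). The shares of all genes were 0.114%, 0.326%, 0.473% and 0%. At an unadjusted p under 0.05 there were 1 in the WT line (beside 4.46% of all genes) and 4 in the mutant line (beside 5.88%). There were 8 in the average (beside 5.52%) and 0 in the difference (beside 4.21%). Between the lines, averaged over states, 39 were higher (21.2%) and 44 lower (23.9%), with a median of -0.02, as for all genes. These shares compare with 15.3% and 16.7% of all genes, and with 24.2% and 26.6% of the genes above the median level fitted alone. The counts by list that follow are of few genes each and are read against the same shares, with no difference tested. Of 18 regulators of E2F, RB and DREAM, 3 were higher and 8 lower. RB1, the retinoblastoma protein that restrains E2F, was 0.583-fold lower (adjusted p = 2.51e-07), and TFDP1, the DNA-binding partner of E2F proteins, was 0.603-fold lower (6.79e-08). LIN9, a subunit of DREAM and its activating counterpart, was 1.34-fold higher and TFDP2, a relative of TFDP1, 1.25-fold higher. Both listed CDK-activating kinase subunits on chromosome 5, CDK7 (1.59-fold) and its cyclin CCNH (1.53-fold), were higher, whereas MNAT1, their assembly factor, was 0.88-fold lower. Of 5 further CDK inhibitors 2 were higher, CDKN2B (1.23-fold) and CDKN1A (1.16-fold), and 0 lower. Of 11 DNA damage and p53 arrest genes 5 were higher and 0 lower, among them SFN (1.47-fold) and TP53INP1 (1.29-fold).

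Calls in the replication lists went in both directions. Of 24 genes for origin recognition and helicase activation, 4 were higher, such as TIPIN (1.34-fold), and 7 lower, such as ORC6 (0.732-fold), a subunit of the origin recognition complex. Of 31 fork and nucleotide genes, 4 were higher, with RPA2 (1.37-fold), a subunit of the single-strand binding protein, and POLE (1.28-fold), the leading-strand polymerase. In the same list 9 were lower, with the histone chaperone ASF1B (0.695-fold) and POLD3 (0.771-fold). Of 21 kinetochore genes 4 were higher (ZW10, 1.59-fold) and 6 lower (CENPI, 0.569-fold). Of 21 genes of the anaphase-promoting complex, SCF and separase, 4 were higher, with the separase inhibitor PTTG1 (1.53-fold) and CDC23 (1.41-fold), and 4 lower, with CDC16 (0.612-fold). CDC16 and CDC23 are both subunits of the anaphase-promoting complex. Of 25 motor and cytokinesis genes 7 were higher (KIF20A, 1.41-fold) and 5 lower (CKAP2, 0.614-fold; KIF22, 0.726-fold). Of 18 condensin and cohesin genes 1 was higher (NCAPD3, 1.57-fold) and 4 lower (STAG1, 0.753-fold). Of 10 other cyclins and CDK partners 5 were higher and 1 lower.

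Several of these differences went with the chromosome of the gene. Of all genes tested, 60.0% of 782 on chromosome 5 were higher in the mutant line, 55.1% of 316 on chromosome 13 were lower and 34.3% of 236 on chromosome 21 were lower. Elsewhere 13.6% were higher and 16.4% lower. The median log2 difference was 0.25 on chromosome 5, -0.28 on chromosome 13 and -0.13 on chromosome 21, and from -0.06 to 0.01 on the other 20 chromosomes. Both members on chromosome 5, CCNB1 and CDC25C, were higher. So were 9 of 10 other cell cycle genes there (CDK7, CCNH, PTTG1, CENPH, CENPK, CDC23, KIF20A, SKP1 and HMMR), SKP2 being the one not past the threshold (1.02-fold). On chromosome 13, which held no member, 6 of 7 other genes were lower (RB1, TFDP1, CDC16, CKAP2, RFC3 and PDS5B), and CCNA1 did not pass. Both genes on chromosome 21, DONSON and CHAF1B, were lower. Of the 40 members on other chromosomes, 10 were higher and 8 lower. E2F2 lies on chromosome 1, CDK6 on 7, CCND1 on 11, CCND2 on 12 and PLK1 on 16, where medians were near 0. Gene copy number was not measured here, and its part in the result was not tested.

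Motif letters were counted in all RefSeq promoters of the same window, and 33 of the 42 members had an entry (48 promoters). The E2F letters searched were TTTCCCGC, TTTCGCGC, TTTGCCGC and TTTGGCGC on either strand. They stood in 13 of the 48 member promoters (27.1%) and in 3.14% of all 35116 promoters. The CHR letters TTTGAA and TTCGAA stood in 14 member promoters (29.2%) and 15.6% of all. CCAAT stood in 34 (70.8%) and 33.6% of all. By gene, 12 members had E2F letters: MCM2, MCM3, MCM6, MCM7, CDC6, CDT1, PCNA, TYMS, E2F1, E2F2, CDC25A and CDK1. Read against the line differences, E2F letters were present in 5 of 10 higher members with an entry, 1 of 5 lower and 6 of 18 not past the threshold. CHR letters were present in 3 of 10, 4 of 5 and 6 of 18, and CCAAT in 7 of 10, 4 of 5 and 14 of 18. These counts are descriptions of small groups, and no difference among them was tested.

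The spread within groups was small beside the line differences of the leading members. The SE of a single comparison had a median of 0.06 over members in log2 units. Over all 12 arrays the range of a member was widest for E2F2 (0.93), CDK6 (0.92), CDC25C (0.74), CCND1 (0.65), CCNB1 (0.61), CCND2 (0.53) and PLK1 (0.53). The mean level over the 42 members was 9.84 ± 0.022 (SD, n = 3) in the uninduced and 9.81 ± 0.011 in the induced WT cultures. In the mutant line it was 9.91 ± 0.025 and 9.88 ± 0.025, so that the groups' means differed by less than 0.1 in log2 units. Every mutant array (lowest 9.8589) lay above every WT array (highest 9.8576), by a narrow margin, and this difference was not tested. The mean over all genes ran from 7.012 to 7.0395 in the WT arrays and from 7.0043 to 7.0231 in the mutant arrays. Averaged over states, 19 members had a positive and 23 a negative line difference, so the higher mean was not a rise of most members.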

How the data were processed

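RNA of 12 cultures was hybridised to Affymetrix arrays. The deposited values are log2 levels per probe set, which the authors computed by RMA (per the submitters' processing notes), a method that subtracts background, equalises array distributions and summarises probes. The log base was read from the range (1.055 to 14.096). Of 32321 probe sets, 19158 had 1 gene symbol, 1388 several and 11775 none, giving 18404 genes. Array medians ran from 6.36 to 6.43, and arrays of a group correlated at 0.9919 to 0.9958 across all probe sets.

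Groups came from the sample titles. Each gene was fitted with limma 3.58.1 (R 4.3.3) as 4 group means over 12 arrays, two-sided, with Benjamini-Hochberg adjustment over 18404 genes and a threshold of 0.05. Intervals are 95%. The labels call the replicates biological and say no more, so p-values measure the spread between these samples. The number of arrays limits the precision. The fit was tested on simulated data.

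The members and lists were chosen with earlier results of these data known. All 44 members are accounted for. Levels in every array were given for up to 4 members higher and 4 lower of largest line difference, and for the member of highest mean in each role. Up to 2 genes higher and 2 lower were named per other list. CDC6, CCNB1, the list of chromosome 5, 13 and 21 genes, and the promoters shown were chosen after values were seen.

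Replicate letters recur in the groups. Deviations from group means of same-letter WT arrays, uninduced and induced, correlated at 0.391, 0.139 and 0.246, and the letters were taken to pair them. In the mutant line the values were 0.117, -0.143 and -0.0192, which were read as unpaired. Same-letter arrays of different lines correlated at 0.32, 0.144 and -0.126 when induced, and at -0.123, -0.147 and 0.0893 when uninduced. Some values between the lines were thus as high as some within the WT line, and the pairing is not certain. The main calls come from the fit without a replicate block, which leaves this pairing out. The fit was repeated with a replicate block, centred arrays, dim genes left out, mean of probe sets, a trended robust prior, array weights, the arrays of a comparison alone, an ordinary analysis of variance and leaving out each array. A block in the WT line alone, and leaving out chromosomes 5, 13 and 21, were added after seeing the data. With that block, 1 of all genes passed on induction in the WT line, against 21 in the main fit. The WT arrays alone without a block also gave 1. Promoters are RefSeq (GRCh38.p14), read from 250 bases before to 30 after the start. Figures were drawn with matplotlib 3.10.9.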

Additional observations from a re-analysis of the deposited data

Results flagged for a closer look

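The E2F2 levels on induction differed in opposite directions in the lines. All 3 induced WT cultures lay above the uninduced ones and all 3 induced mutant cultures lay below theirs. The log2 difference of the responses, mutant minus WT, was -0.28, and the test of that difference did not pass (adjusted p = 0.921, limma). E2F2 was picked out from 42 members by this pattern, and the share of all genes with the pattern was not counted. In the WT line alone, E2F2 did not reach an unadjusted p under 0.05 (limma).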

How the results depend on the processing

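No member call between the lines changed direction under the alternatives run. In the comparison averaged over states, 17 of 20 member calls held under all of them. MCM6, CDK2 and CDC20 were lost with arrays centred on their medians (adjusted p = 0.112, 0.0595 and 0.0794, limma) and with single arrays left out, the highest adjusted p being 0.0746, 0.0631 and 0.0619. For MCM6 these were replicates B or C of both WT groups, A or B of the uninduced and A or C of the induced mutant group. For CDK2 these were WT uninduced B or C, WT induced A or B, or mutant uninduced B. For CDC20 they were WT uninduced B, WT induced A or C, or mutant uninduced A or B. Of the calls in one state, 2 of 13 uninduced (RRM1 and CDC25A) and 4 of 14 induced (MCM5, PCNA, CDK1 and CCNE1) were lost under at least 1 alternative. The count of members past the threshold in the uninduced lines was 13, and 21 with array weights. On induction CDC6 was the member that passed under some alternatives. It made the count 1 instead of 0 in the mutant line with dim genes left out, a trended robust prior or the ordinary analysis of variance, and 1 in the average under these and with array weights. With a replicate block in the fit of all arrays, 0 members passed on induction in either line, 14 in the uninduced lines, 14 in the induced lines and 20 in the average, so the block changed no count by over 1.5 times. Over all genes, the count for induction was 21 in the WT line (1 to 153 over the alternatives), 60 in the mutant line (20 to 105) and 0 for the difference (0 to 9), and 3934 for the uninduced lines (2988 to 6643).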

Other observations

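BIRC5 had another probe set with BIRC5 as its only symbol, of lower level, which was not used for the calls. Its group means ran from 5.82 in the induced mutant cultures to 6.16 in the uninduced WT cultures, both mutant means being lower than both WT means. Its arrays overlapped, with 5.95 to 6.36 in the WT line and 5.64 to 6.08 in the mutant line. All lay below log2 6.393, and this probe set was not tested alone.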
